A study of Sus scrofa domesticus with 9 samples.

Results

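Lung mRNA of growing pigs was examined for 9 interferon-stimulated genes, namely ISG15, USP18, MX1, MX2, IFIT1, IFIT3, OAS1, OAS2 and RSAD2. They were chosen by name from a table of 35670 genes, and each name matched 1 gene. The pigs were fed cholecalciferol (vitamin D3) at an increased dose (5 libraries, replicates 3, 19, 27, 51 and 59) or at a standard dose (4 libraries, replicates 9, 17, 33 and 41). All animals were female according to the labels, received otherwise the same feed and gave 1 library each from the upper lobe of the left lung. RNA had been isolated from 5 pigs per group, and 1 library was left out before deposit. The labels give neither the age of the animals nor a batch, and no infection or other challenge of the pigs is described. The comparison shows whether the higher dose of cholecalciferol went with a different mRNA level of these antiviral genes in the lung.

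Interferons are secreted when cells sense viral nucleic acid. Type I and type III interferons bind their receptors and activate the kinases JAK1 and TYK2, and a protein complex that contains STAT2 and IRF9 then binds the interferon-stimulated response element (ISRE) in the promoters of target genes. The proteins encoded by the 9 genes act at different steps against viruses. ISG15 is a ubiquitin-like modifier, and USP18 removes it from proteins and also dampens signalling at the type I receptor. MX1 and MX2 are dynamin-like GTPases that block incoming viruses, IFIT1 and IFIT3 form complexes that bind foreign RNA, OAS1 and OAS2 make an oligoadenylate messenger that leads to the decay of RNA, and RSAD2 (viperin) makes a nucleotide that stops viral polymerases.

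The genes lie on 5 chromosomes of Sscrofa11.1, and 6 of them sit beside a relative. In the authors' annotation MX2 (chr13:204798629-204831957, plus strand) is 11796 bases from MX1 (chr13:204843754-204868922, plus strand). IFIT3 (chr14:101214710-101225164, plus strand) is 12406 bases from IFIT1 (chr14:101237571-101249498, plus strand). OAS1 (chr14:38851918-38859409, minus strand) lies inside the span of OAS2 (chr14:38827660-38860820, minus strand) in that annotation, whereas RefSeq keeps the pair 3385 bases apart. The RefSeq OAS1 also ends 835 bases beyond the 3′ end of the authors' gene model, which matters for reads taken near 3′ ends, so the OAS1 and OAS2 values are uncertain. The others are ISG15 (chr6:63363173-63364208, plus strand), USP18 (chr5:70183308-70229572, plus strand) and RSAD2 (chr3:128877186-128897815, minus strand). Paralogs can share reads, which limits the values within the MX, IFIT and OAS pairs.

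The core of the ISRE, written GAAA, any 2 bases and GAAA, was searched on both strands of the 250 bases before each RefSeq gene start. It was found in 589 of 19569 promoter windows (3.01%), and in 5 of the 9 windows of the members, among them those of ISG15, IFIT3, OAS2 and RSAD2. The gamma-activated site, written TTC, any 3 bases and GAA, was found in 1197 windows (6.12%) and in 0 of the 9. A match describes the letters and does not show a bound site. ISG15 had 3 overlapping or neighbouring matches, whose ends nearest the gene start stood 98 to 124 bases before it. In IFIT3 the nearest of 2 matches stood 26 bases before the start, against 8 bases for the single match of OAS2 and 120 for that of RSAD2. The windows of ISG15 (chr6:63362951-63363200, plus strand) and IFIT3 (chr14:101214480-101214729, plus strand) are shown because they hold the element in different numbers and places. They are printed 5′ to 3′ from the RefSeq genome Sscrofa11.1, with the ISRE core matches of either strand in capitals.
ISG15: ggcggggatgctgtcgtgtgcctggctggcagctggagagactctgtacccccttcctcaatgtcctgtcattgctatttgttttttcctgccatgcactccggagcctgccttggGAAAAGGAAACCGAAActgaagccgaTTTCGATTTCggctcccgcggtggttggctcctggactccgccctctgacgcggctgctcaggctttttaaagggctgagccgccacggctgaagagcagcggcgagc
IFIT3: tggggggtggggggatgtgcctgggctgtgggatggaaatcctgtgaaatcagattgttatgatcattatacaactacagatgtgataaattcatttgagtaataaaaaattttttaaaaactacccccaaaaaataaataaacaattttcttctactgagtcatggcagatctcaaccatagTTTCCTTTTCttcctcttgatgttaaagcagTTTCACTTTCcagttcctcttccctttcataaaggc

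The reads assigned to genes numbered 4427608 to 5919294 per library in the increased-dose group and 4253502 to 5411543 in the standard-dose group. The value of 1 read was 0.853 to 1.49 normalized counts. The libraries were made by a 3′ method that gives about 1 read per transcript, so normalized counts need no correction for gene length. Between genes they still depend on whether the gene model reaches the 3′ end, which is in doubt for OAS1. Standard-dose replicates 9 and 41 stood apart, with median Spearman correlations with the other libraries of 0.751 and 0.831, against 0.912 to 0.933 for the remaining 7. Hepatocyte markers had their highest mean log2 levels in the same 2 libraries (13.3 in replicate 9 and 11.5 in replicate 41, against at most 10.6 elsewhere). Markers of type 2 pneumocytes, the surfactant-making cells of the lung, were lowest in standard-dose replicate 9 (8.35, against at least 10.4 in the other 8 libraries). Macrophage markers were lowest in standard-dose replicate 41 (8.04, against 9.67 to 10.4 in the other 8).

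No member passed the dose comparison. With limma on log2(normalized count + 1), 0 of the 8 members above a mean of 20 normalized counts had an adjusted p under 0.05 (Benjamini-Hochberg over all genes), as had 0 of 12446 genes (0%). At an unadjusted p under 0.05, limma gave 0 of these 8 members against 1514 genes (12.2%), and edgeR gave 0 members against 1873 genes (15%). DESeq2 gave 1 member, USP18, against 1695 genes (13.6%), and with adjustment 0 members against 195 genes (1.57%). The adjusted p of the members by limma lay between 0.435 and 0.977. The increased-dose and standard-dose values overlapped for all 9 members, while they did not overlap for 474 genes (3.81%). The log2 fold change was above 0 for 7 of the 8 members (8 with TMM scaling, where OAS2 turned) and for 6318 genes (50.8%), with a median of 0.27 over the members and 0.0084 over all genes. In bulk lung, fewer cells of a type and less RNA per cell cannot be told apart.

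**Figure D1:**
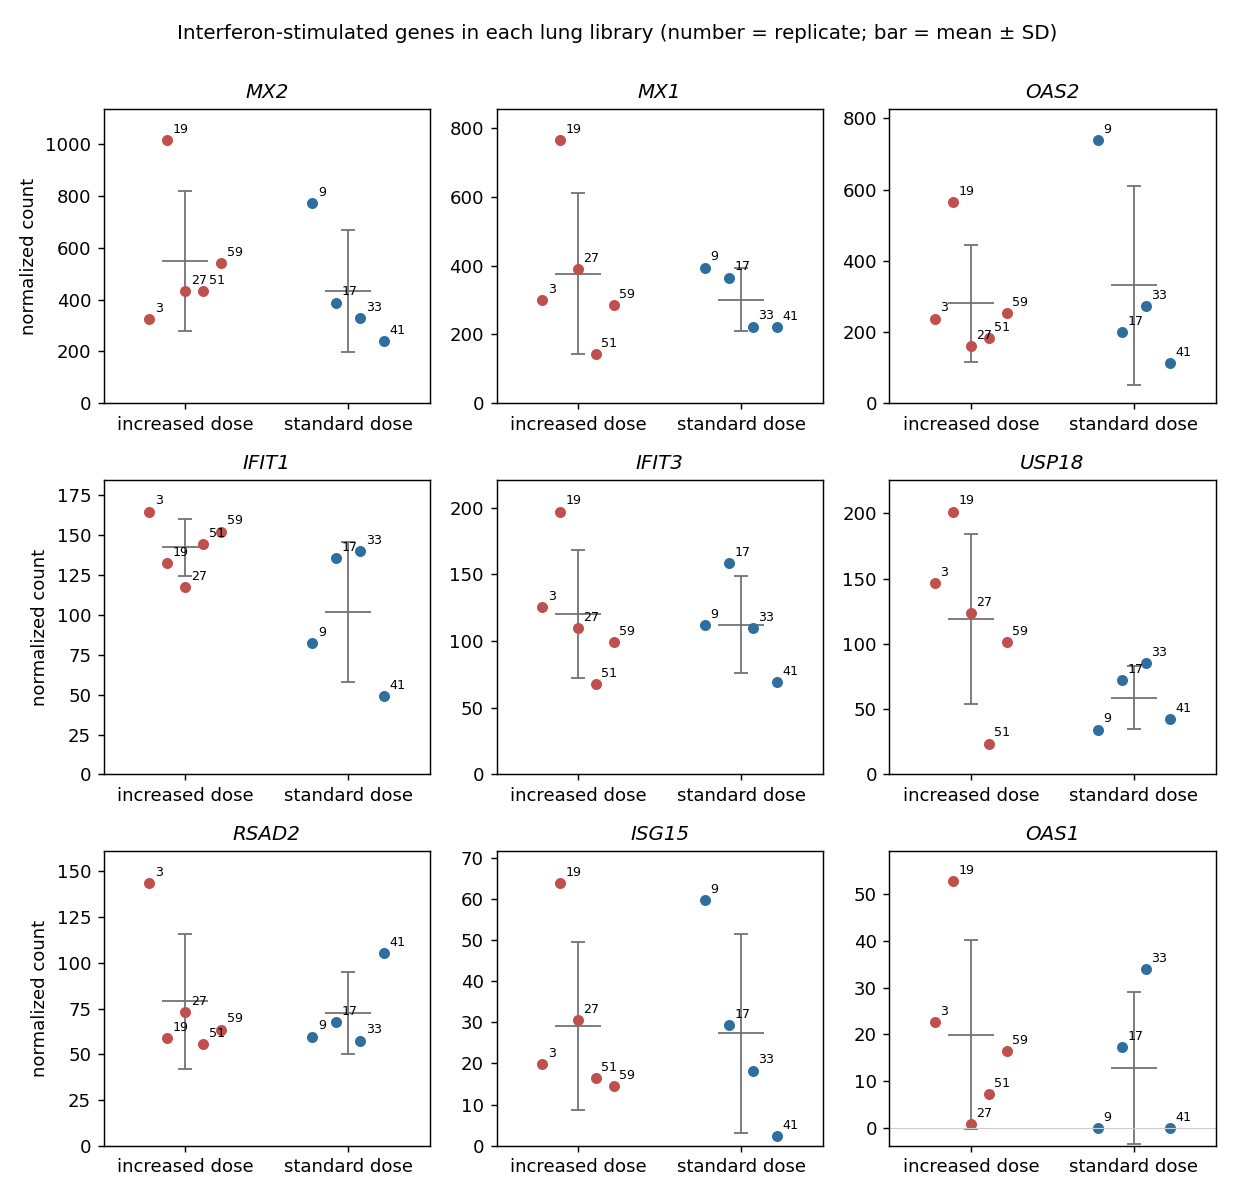
Normalized counts (y axis) of the 9 interferon-stimulated genes in the increased-dose libraries (left, red, n = 5) and the standard-dose libraries (right, blue, n = 4). Points are libraries with their replicate numbers and the grey bars show the mean ± SD. The values of both groups overlap in every panel, and increased-dose replicate 19 is the highest point for 6 of the 9 genes.

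ISG15, the modifier, was among the least abundant members. Its normalized counts were 19.9, 64.0, 30.5, 16.5 and 14.4 in increased-dose replicates 3, 19, 27, 51 and 59, against 59.7, 29.3, 18.3 and 2.24 in standard-dose replicates 9, 17, 33 and 41. Each group held 1 library near 60 normalized counts, and standard-dose replicate 41 had only 2 reads. The means were 29.1 ± 20.5 in the increased-dose group and 27.4 ± 24.2 in the standard-dose group (SD, n = 5 and 4). The log2 fold change of 0.49 (SE 0.78) was smaller than its error, with an adjusted p of 0.797 by limma and p = 0.683 in the exact two-sided permutation test. On the recovered reads it was 0.12 by edgeR and 0.10 by DESeq2. Without standard-dose replicate 41 it was -0.34, so its sign rested on that library.

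USP18, which removes ISG15 from its targets, had the largest positive log2 fold change of the 8 members tested. It was measured at 147, 201, 124, 23.7 and 101 normalized counts in increased-dose replicates 3, 19, 27, 51 and 59, against 34.3, 72.2, 85.3 and 42.5 in standard-dose replicates 9, 17, 33 and 41. In the increased-dose group 4 of the 5 libraries lay above every standard-dose library, and replicate 51 lay below all of them. The averages were 119 ± 65.1 normalized counts in increased-dose pigs and 58.6 ± 24.1 in standard-dose pigs. This gave a log2 fold change of 0.82 (SE 0.53), with an adjusted p of 0.492 by limma, 0.356 by edgeR and 0.370 by DESeq2. The exact permutation p was 0.246 with all 9 libraries. Without increased-dose replicate 51, the only library that made the groups overlap, it was 0.0286, the smallest that 4 against 4 libraries can give. Leaving out that library fixed this value in advance, so it does not count as support. The adjusted p by limma without that library was 0.558. The log2 fold change was then 1.32. It was 0.31 without standard-dose replicates 9 and 41.

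The enzymes that attach ISG15 were also measured. All 5 genes of this list (UBA7, UBE2L6, HERC5, HERC6 and TRIM25) had log2 fold changes above 0, with a median of 0.43, and 0 of 5 passed at an adjusted p or at an unadjusted p under 0.05 by limma. UBE2L6, the conjugating enzyme, was found at 255, 420, 254, 129 and 194 normalized counts in increased-dose replicates 3, 19, 27, 51 and 59, against 136, 173, 137 and 203 in standard-dose replicates 9, 17, 33 and 41. HERC6, an ISG15 ligase in mice, ranged over 268 to 1020 in the increased-dose group and 107 to 557 in the standard-dose group (log2 fold change 0.79, SE 0.47, adjusted p 0.471 by limma). TRIM25, a ubiquitin ligase that can also carry ISG15, ranged over 365 to 519 in the increased-dose group and 216 to 576 in the standard-dose group. For 4 of these 5 genes the highest library was increased-dose replicate 19, as it was for ISG15 and USP18.

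MX2 and MX1 were the most abundant members. MX2 had 325, 1014, 433, 433 and 542 normalized counts in increased-dose replicates 3, 19, 27, 51 and 59, against 773, 389, 328 and 238 in standard-dose replicates 9, 17, 33 and 41. MX1 had 300, 763, 389, 142 and 284 in the increased-dose libraries, against 394, 365, 223 and 222 in the standard-dose libraries, in the same order of replicates. Both GTPases peaked in increased-dose replicate 19 and were also high in standard-dose replicate 9, but in replicate 51 MX1 was at its lowest while MX2 was near the middle. For MX2 the log2 fold change was 0.37 (SE 0.37, adjusted p 0.667 by limma, exact permutation p = 0.413). That of MX1 was 0.16 (SE 0.40, adjusted p 0.878 by limma, exact permutation p = 0.762), and it was -0.15 without increased-dose replicate 19.

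IFIT1 and IFIT3, partners in 1 RNA-binding complex, were highest in different libraries. IFIT1 was counted at 165, 132, 118, 144 and 152 normalized counts in increased-dose replicates 3, 19, 27, 51 and 59, against 82.1, 135, 140 and 49.2 in standard-dose replicates 9, 17, 33 and 41. The increased-dose libraries lay close together, standard-dose replicates 17 and 33 lay among them, and standard-dose replicates 9 and 41 lay below. IFIT1 averaged 142 ± 18.1 in the increased-dose group and 102 ± 43.7 in the standard-dose group, and its log2 fold change was 0.59 (SE 0.31, adjusted p 0.435 by limma, exact permutation p = 0.0873). Without standard-dose replicates 9 and 41 the log2 fold change of IFIT1 was 0.04. The authors' annotation describes the IFIT1 entry with the full name of IFIT3, and RefSeq places IFIT1 there.

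IFIT3 was at 126, 197, 110, 68.0 and 99.2 normalized counts in increased-dose replicates 3, 19, 27, 51 and 59, against 112, 158, 110 and 69.4 in standard-dose replicates 9, 17, 33 and 41. The groups lay over each other, with a log2 fold change of 0.07 (SE 0.33, adjusted p 0.943 by limma, exact permutation p = 0.825). It was -0.13 without increased-dose replicate 19, -0.14 without standard-dose replicate 41 and -0.22 without standard-dose replicates 9 and 41. The relatives IFIT2 and IFIT5, outside the 9 genes, were named after their values were seen. IFIT2 was at 169, 363, 148, 92.7 and 171 normalized counts in the increased-dose libraries and 71.6, 190, 92.2 and 21.3 in the standard-dose libraries (log2 fold change 1.23, SE 0.53, unadjusted p 0.0391, adjusted p 0.401 by limma). IFIT5 was at 52.5, 83.6, 66.2, 56.7 and 38.5 in the increased-dose libraries and 41.8, 24.7, 16.5 and 3.36 in the standard-dose libraries (log2 fold change 1.78, SE 0.58, unadjusted p 0.00878, adjusted p 0.397 by limma). For both, increased-dose replicate 19 was the highest library and standard-dose replicate 41 the lowest.

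OAS2 was the member with a log2 fold change below 0. Its normalized counts were 238, 566, 161, 183 and 254 in increased-dose replicates 3, 19, 27, 51 and 59, against 738, 199, 274 and 112 in standard-dose replicates 9, 17, 33 and 41. The highest library of all was standard-dose replicate 9 and the lowest standard-dose replicate 41, so that the standard-dose group spanned the whole range. The log2 fold change of -0.04 (SE 0.49, adjusted p 0.977 by limma, exact permutation p = 0.937) was 0.46 without standard-dose replicate 9 and 0.011 with TMM scaling of the libraries.

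OAS1 was below the minimum mean of 20 normalized counts and has no limma p. It was at 22.6, 52.9, 0.871, 7.21 and 16.4 normalized counts in increased-dose replicates 3, 19, 27, 51 and 59, against 0, 17.4, 33.9 and 0 in standard-dose replicates 9, 17, 33 and 41. Standard-dose replicates 9 and 41 had no OAS1 read, which at 3 reads allows up to 4.48 and 3.36 normalized counts for counting error only, and increased-dose replicate 27 had 1 read. The exact permutation p was 0.381. In standard-dose replicate 9 OAS1 was thus without a read in the library where OAS2 was at its highest.

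RSAD2 was at 144, 58.9, 73.1, 55.6 and 63.5 normalized counts in increased-dose replicates 3, 19, 27, 51 and 59, against 59.7, 67.7, 57.4 and 105 in standard-dose replicates 9, 17, 33 and 41. Increased-dose replicate 3 was the highest and standard-dose replicate 41, in which 5 of the 9 members were at their lowest, came next. Its log2 fold change was 0.07 (SE 0.34, adjusted p 0.941 by limma, exact permutation p = 0.817), and it was -0.17 without increased-dose replicate 3.

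**Figure D2:**
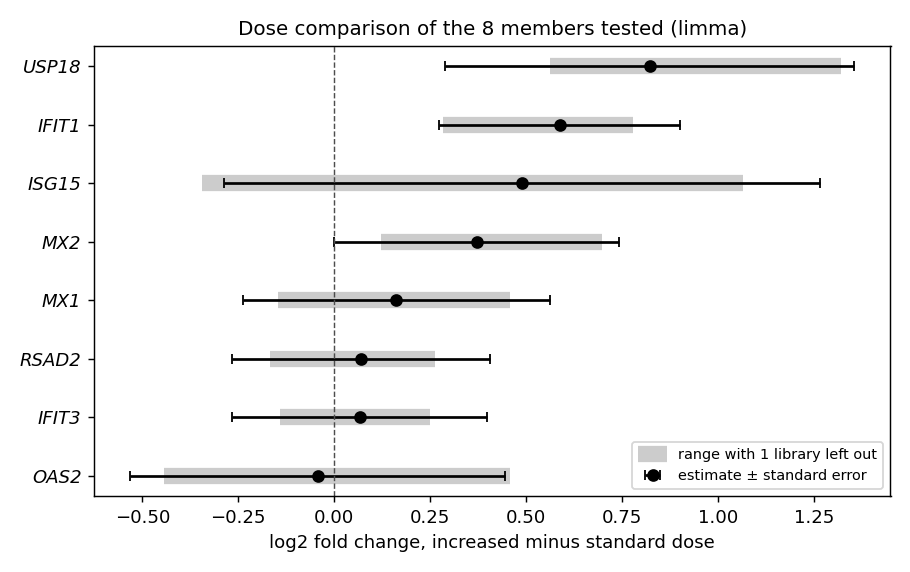
Log2 fold change, increased minus standard dose (x axis), of the 8 members that passed the minimum (y axis). Points and whiskers are the limma estimate ± standard error, and the grey bands are the range when each of the 9 libraries is left out in turn. The bands of ISG15 (-0.34 to 1.06), MX1, RSAD2, IFIT3 and OAS2 cross 0, while those of USP18 (0.56 to 1.32), IFIT1 (0.28 to 0.78) and MX2 (0.12 to 0.70) do not.

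For the mean level of the members, the spread between animals of the same dose was larger than the difference between the doses. Increased-dose replicate 19 was the highest library for 5 of the 8 members tested (62.5%), against 13.1% of all genes tested, and for OAS1 as well. Standard-dose replicate 41 was the lowest for 4 of the 8 (50%, against 22.4% of all genes) and increased-dose replicate 51 for the other 4 (50%, against 8.01%). The mean log2 level of the 8 members was 7.20, 7.87, 7.07, 6.42 and 6.97 in increased-dose replicates 3, 19, 27, 51 and 59, against 7.24, 7.05, 6.85 and 6.02 in standard-dose replicates 9, 17, 33 and 41. The group means of this level were 7.11 ± 0.52 in the increased-dose group and 6.79 ± 0.54 in the standard-dose group, a difference of 0.32 that is smaller than the SD within groups of 0.53. Without increased-dose replicate 19 or standard-dose replicate 41 the difference was 0.12 or 0.06, and without standard-dose replicates 9 and 41 it was 0.03. The median SD within groups was 0.69 on the log2 scale for the members, against 0.52 for all genes and 0.51 for the 9721 genes in the same range of mean levels. For the 27 other interferon-stimulated genes tested it was 0.50, so the larger spread was not shared by that list. Among the members the SD was largest for ISG15 (1.34), USP18 (0.97) and OAS2 (0.91) and smallest for IFIT1 (0.48) and RSAD2 (0.49).

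**Figure D3:**
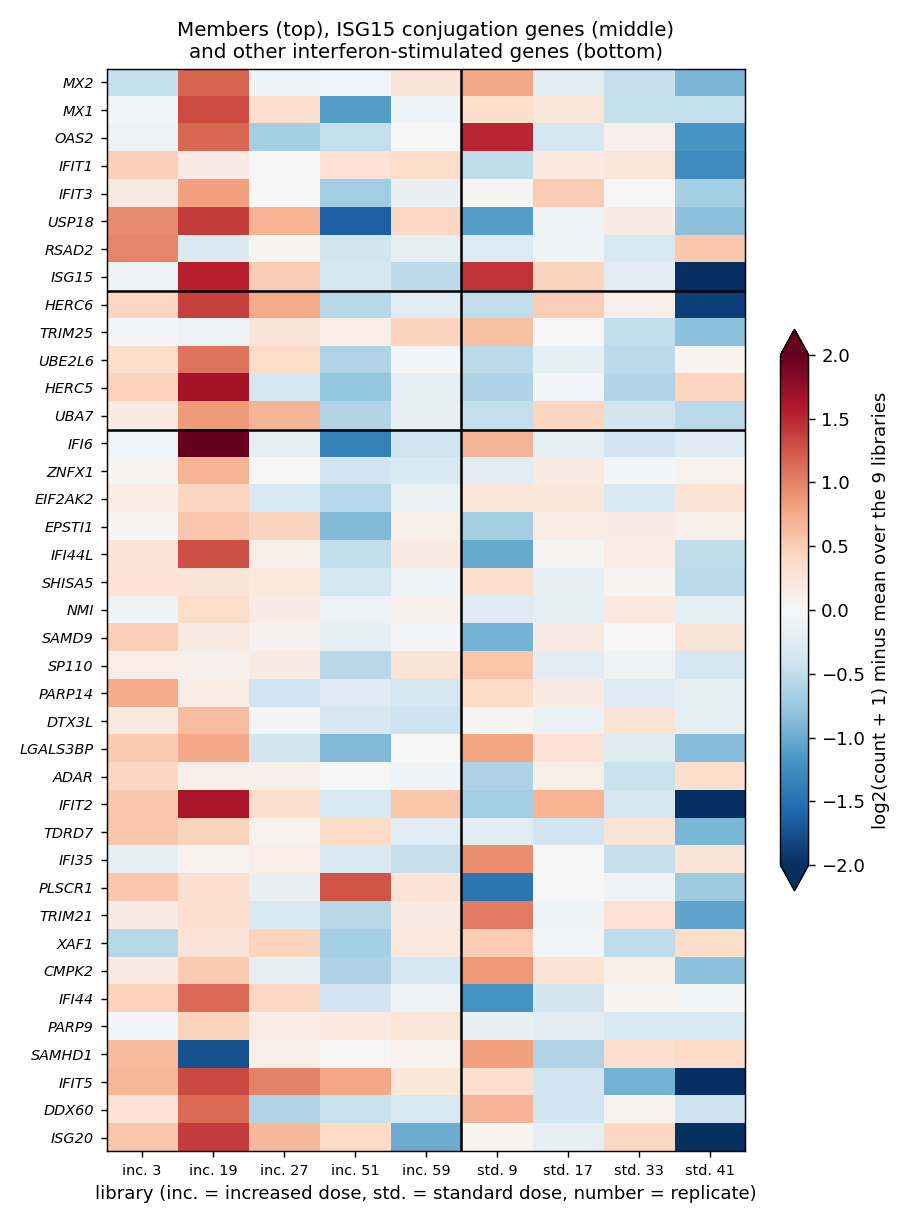
Deviation of log2(normalized count + 1) from the mean over the 9 libraries (colour) for the 8 members, 5 ISG15 conjugation genes and 26 of the 27 other interferon-stimulated genes tested (rows), in the increased-dose (left) and standard-dose (right) libraries (columns). Increased-dose replicate 19 was the highest library for 5 of the 8 members, 4 of the 5 conjugation genes and 13 of the 26 others drawn.

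How far the members moved together was described by the Pearson correlation of each with the mean of the other members over the 9 libraries, which share depth and the libraries that stand apart. It was 0.87 for IFIT3, 0.80 for MX1, 0.76 for ISG15, 0.62 for USP18, 0.61 for MX2 and 0.60 for OAS2, but 0.34 for IFIT1 and -0.29 for RSAD2. Spearman's rho was lower for several, at 0.78 for IFIT3, 0.82 for MX1, 0.75 for ISG15, 0.52 for USP18, 0.38 for MX2, 0.40 for OAS2, 0 for IFIT1 and 0.017 for RSAD2. The genes whose levels were most like the mean of the standardized members, among the named genes tested, were TRAPPC3 (r = 0.96), IDH3G (0.96), TGFBI (0.95), ISCU (0.94), ENO1 (0.93), PSME3IP1 (0.93) and ZNF689 (0.92), over 9 libraries. None of these 7 is in the interferon lists used here. All 7 were highest in increased-dose replicate 19, and the correlations were 0.71 to 0.92 without increased-dose replicate 19 and standard-dose replicate 41, the libraries farthest from the median.

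Many other interferon-stimulated genes were also highest in increased-dose replicate 19 (13 of 27, or 48.1%, against 13.1% of all genes). Of 31 in the table, 27 passed the minimum, 19 with log2 fold changes above 0 and 8 below, with a median of 0.06. By limma 0 of the 27 passed at an adjusted p under 0.05. At an unadjusted p under 0.05 there were 3 (IFIT2, IFIT5 and PLSCR1), all higher in the increased-dose group, with adjusted p of 0.397 to 0.401. Of all genes 12.2% had an unadjusted p under 0.05 in either direction (693 of 12446 higher and 821 lower). IFI6, a small endoplasmic reticulum protein induced by interferon and the most abundant of the list, was at 1908, 8754, 1738, 774 and 1510 normalized counts in increased-dose replicates 3, 19, 27, 51 and 59, against 3172, 1753, 1528 and 1669 in standard-dose replicates 9, 17, 33 and 41. Increased-dose replicate 19 thus stood far above all others and replicate 51 lowest, as for MX1, and the log2 fold change was 0.06 (SE 0.54). ISG12(A), named after its values were seen, was at 376, 1814, 704, 330 and 562 in the increased-dose libraries and 931, 507, 414 and 102 in the standard-dose libraries. Of the other most abundant genes of the list, ZNFX1, an RNA sensor, spanned 1077 to 2266 in the increased-dose group and 1200 to 1593 in the standard-dose group. EIF2AK2, the kinase that halts translation on double-stranded RNA, spanned 328 to 653 in the increased-dose group and 394 to 592 in the standard-dose group.

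Genes that respond mainly to interferon gamma were high in a different animal. Of 12 that passed the minimum, 9 (IRF1, CIITA, GBP1, GBP2, CXCL10, IDO1, WARS1, PSMB9 and TAP1) were highest in increased-dose replicate 3 (75%, against 7.07% of all genes), as were RSAD2 and IFIT1 among the members. GBP1, a GTPase directed at intracellular pathogens, was at 795, 283, 438, 364 and 306 normalized counts in the increased-dose libraries and 354, 366, 389 and 302 in the standard-dose libraries. CXCL10, a chemokine that attracts T cells, was at 542, 263, 365, 106 and 126 in the increased-dose libraries and 322, 326, 285 and 303 in the standard-dose libraries. IDO1, which degrades tryptophan, was at 88.6, 11.09, 17.4, 24.7 and 31.8 in the increased-dose libraries and 22.4, 32.9, 5.22 and 31.3 in the standard-dose libraries. Replicate 3 thus exceeded every other library for these genes, while replicate 19, in which most members peaked, was among the 3 lowest libraries for each of them. These 3 genes were named after their values were seen, and replicate 19 was high for others of the list, being the highest library for CXCL9 and PSMB8 and next to the highest for GBP2, PSMB9 and TAP1. Of the 12, 9 had log2 fold changes above 0 and 3 below (median 0.35), and limma passed 0 at an adjusted p under 0.05. PSMB8, an immunoproteasome subunit, had the only unadjusted p under 0.05 (log2 fold change 1.17, SE 0.36, adjusted p 0.397), with 148 to 388 normalized counts in the increased-dose group and 48.1 to 140 in the standard-dose group. PSMB9, its partner, spanned 259 to 737 in the increased-dose group and 172 to 646 in the standard-dose group, and TAP1, a peptide transporter, spanned 295 to 680 in the increased-dose group and 212 to 503 in the standard-dose group. LAP3, an aminopeptidase, spanned 831 to 1095 in the increased-dose group and 712 to 3627 in the standard-dose group.

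Upstream of the members, most interferon ligand genes had no read. Of 27 interferon ligand genes in the table, 21 had no read in any library, IFNB1 and IFNA1 among them, and IFNG had 1 read over all 9 libraries. IFNE, an epithelial interferon, was at 14.5 to 26.4 normalized counts in the increased-dose group and 2.98 to 92.9 in the standard-dose group. IFN-OMEGA-6 was at 9.38 to 72.2 in the increased-dose group and 29.8 to 54.9 in the standard-dose group, with its lowest value in increased-dose replicate 19, where most members peaked. Over all 9 libraries IFNE had 259 reads and IFN-OMEGA-6 had 371, against 258 for the member ISG15. No type III interferon (IFNL) gene was among the 27, so those ligands could not be seen. A count of no read shows only that the mRNA was not detectable at this depth.

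All receptor and relay genes passed the minimum except IFNLR1 of the type III receptor, which ranged from 1.74 to 55.2 normalized counts over the libraries. Of the 5 receptor genes tested 3 had log2 fold changes above 0 and 2 below, and of 6 relay genes 3 and 3, with 0 passing at an adjusted p under 0.05 by limma. IFNAR1, a chain of the type I receptor, had 575 to 643 normalized counts in the increased-dose group and 588 to 1314 in the standard-dose group (log2 fold change -0.42, SE 0.24, adjusted p 0.456 by limma). IFNAR2, the chain that USP18 binds, had 129 to 277 in the increased-dose group and 195 to 288 in the standard-dose group, and IFNGR1 of the gamma receptor had 277 to 336 in the increased-dose group and 155 to 303 in the standard-dose group. JAK1 spanned 879 to 1199 in the increased-dose group and 1114 to 1931 in the standard-dose group, and IRF9 spanned 298 to 572 in the increased-dose group and 170 to 441 in the standard-dose group. TYK2, named after its values were seen, was at 90.5, 81.0, 87.1, 73.2 and 70.3 in the increased-dose libraries and 37.3, 64.0, 37.4 and 41.4 in the standard-dose libraries. Its groups did not overlap, but the log2 fold change of 0.85 (SE 0.28) had an adjusted p of 0.397 by limma. The unadjusted exact permutation p of 0.00794 is the smallest that 5 against 4 libraries can give. Groups did not overlap for 474 of 12446 genes (3.81%). Of the 75 genes tested in the interferon lists other than the members, they did not for 3 (TYK2, PSMB8 and PARP9), which is near that share. None of the 11 receptor and relay genes tested was highest in increased-dose replicate 19, against 5 of 12 sensor and adaptor genes, 5 of the 8 members and 13.1% of all genes. With only 11 genes, a count of 0 lies near the share of all genes.

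Sensors and inhibitors of the pathway were likewise below the threshold. Of 12 sensor and adaptor genes 8 had log2 fold changes above 0 and 4 below (median 0.19), and of 6 negative regulators 4 and 2 (median 0.29), with 0 passing by limma at an adjusted or an unadjusted p under 0.05. IRF3, the factor that switches on interferon genes, had 159 to 217 normalized counts in the increased-dose group and 113 to 386 in the standard-dose group. MAVS, the mitochondrial adaptor of RNA sensors, had 161 to 206 in the increased-dose group and 133 to 236 in the standard-dose group, and CGAS, the sensor of cytosolic DNA, had 120 to 225 in the increased-dose group and 101 to 198 in the standard-dose group. RIGI, a sensor of viral RNA named after its values were seen, was at 113, 111, 85.3, 86.6 and 79.0 in the increased-dose libraries and 525, 101, 92.2 and 123 in the standard-dose libraries. Standard-dose replicate 9 stood alone at the top for RIGI, as it was highest for OAS2. Among the inhibitors, PIAS1 had 174 to 453 in the increased-dose group and 121 to 206 in the standard-dose group, PTPN2 had 100 to 166 in the increased-dose group and 58.2 to 188 in the standard-dose group, and TRIM38 had 86.6 to 178 in the increased-dose group and 101 to 172 in the standard-dose group. Over all 75 genes of these lists that passed the minimum, 52 had log2 fold changes above 0 and 23 below, with a median of 0.22, and limma, edgeR and DESeq2 passed 0 of them at an adjusted p under 0.05. By limma 5 of the 75 had an unadjusted p under 0.05, all higher in the increased-dose group. Of all genes 12.2% had one in either direction (693 of 12446 higher and 821 lower).

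**Figure D4:**
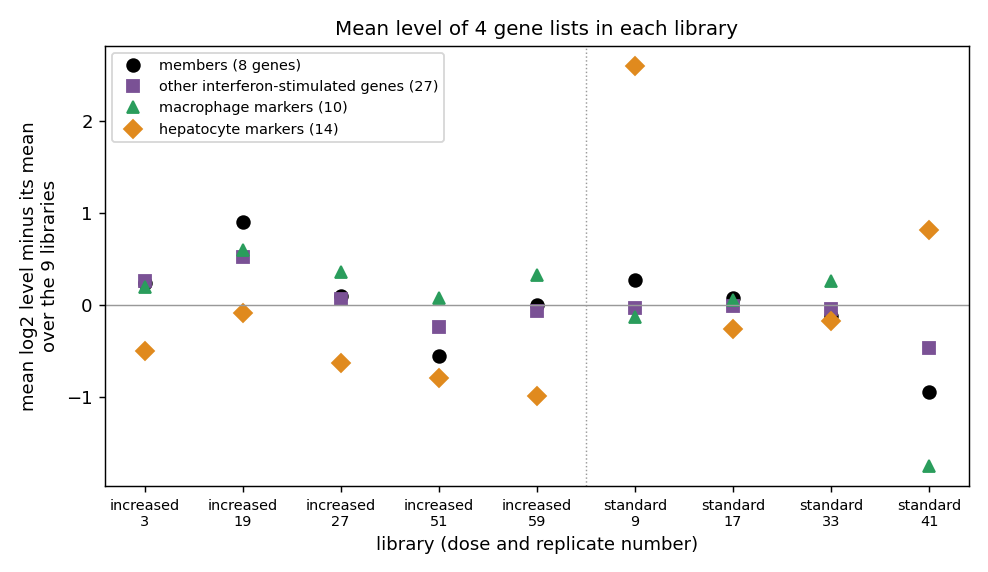
Mean log2 level minus its mean over the 9 libraries (y axis) of 4 gene lists in each library (x axis, increased dose left, standard dose right). Members (black) were highest in increased-dose replicate 19 and lowest in standard-dose replicate 41, where macrophage markers (green) were also highest and lowest, and hepatocyte markers (orange) were highest in standard-dose replicate 9.

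Markers of other cells moved with some of these values. Of 10 macrophage markers 6 were highest in increased-dose replicate 19 and 10 were lowest in standard-dose replicate 41, and their summed level was 14627 to 23132 normalized counts in the increased-dose group and 4033 to 17263 in the standard-dose group. The most abundant were MARCO, a scavenger receptor of alveolar macrophages, at 3496 to 6759 in the increased-dose group and 1416 to 4486 in the standard-dose group, and C1QC, a complement subunit, at 3406 to 6317 in the increased-dose group and 576 to 4034 in the standard-dose group. In increased-dose replicate 51, where 4 members were at their lowest, the mean log2 level of these markers was the lowest of its group. It was 9.87 there, against 9.99 to 10.4 in the other increased-dose libraries. Standard-dose replicates 9, 17 and 41 were lower still (9.67, 9.85 and 8.04). All 7 skeletal muscle markers tested were highest in standard-dose replicate 41 (mean log2 level 13.43, against at most 12.66 elsewhere) and lowest in standard-dose replicate 9. The 14 hepatocyte markers were all highest in standard-dose replicate 9, as were 29.1% of all genes tested. OAS2 (1 of the 8 members tested, 12.5%), RIGI, LAP3 and 8 of the 27 other interferon-stimulated genes (29.6%) were also highest there. The part of these cell markers in the levels of the members was not tested.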

How the data were processed

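Lung mRNA libraries of 9 pigs were grouped by the treatment label, 5 on the increased dose and 4 on the standard dose. Replicates carry the animal numbers of the sample titles (1 animal is numbered 33 in its title and 31 in its column, and the title was followed). The labels do not say that animals were paired or came in batches, and p-values measure the spread between animals.

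Libraries came from the QuantSeq 3′ FWD kit, and the submitters' processing notes name FastQC, TopHat, HTSeq, DESeq2 and Sscrofa11.1. The deposited signal values, called normalized counts here, are reads per gene over a size factor that the authors obtained from DESeq2 for each library. The deposited log2 fold changes, the deposited score (the Wald statistic) and the deposited p-values are the authors' own comparison and were not used. Divided by what 1 read is worth in its library, every value (100%) came within 0.01 of a whole number, so reads were recovered, and 9458 of 35670 genes had none. Of the names, 223 came from the Ensembl name table. Floors given for a count of 0 cover counting error only.

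The 12446 genes whose normalized counts averaged over 20 entered limma 3.58.1 (lmFit, eBayes with trend) on log2(normalized count + 1), increased minus standard dose, two-sided, with Benjamini-Hochberg adjustment over these genes and a threshold of 0.05. The added 1 shrinks the fold changes of low genes, but this scale does not always give the smaller value. For ISG15 it gave 0.49, against 0.12 by edgeR and 0.10 by DESeq2. Members were also tested by an exact permutation test over the 126 ways of dividing 9 libraries into 5 and 4, whose smallest p is 0.00794. edgeR 4.0.16 (quasi-likelihood, 0 genes with an adjusted p under 0.05) and DESeq2 1.42.0 (195 genes, and 355 without an adjusted p) were run on the recovered reads. Other alternatives were pseudocounts of 0.5 and 5, no filter or at least 10 in at least 4 libraries, TMM factors, and leaving out each library or standard-dose replicates 9 and 41. The code was tested on simulated data. R 4.3.3 and Python 3.11.15 were used, with matplotlib 3.10.9 for the plots.

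The members, the interferon lists and the cell type markers were chosen with earlier results of these data known. Named were the 9 members, the 3 genes of each interferon list with the highest mean, any list gene past the threshold, the 8 genes most correlated with the members, the 2 most abundant genes of each cell type list used, and the interferon genes at 0. Some of these are not reported here. Promoter windows were the 250 bases before each RefSeq gene start, and the RefSeq proteins were not used here. Of 27 interferon ligand genes only 6 had a read and 2 passed the minimum.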

Additional observations from a re-analysis of the deposited data

Results flagged for a closer look

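A library was singled out where its gap to the nearest other library exceeded the 95% limit of Dixon's test for the size of its group. Of 82 groups of values examined 8 passed (9.76%), 2 of them of members, and chance alone passes about 1 in 20. That rate holds for independent groups of normally distributed values. The groups here share the same libraries and were taken as normalized counts, so the shares do not show an excess. OAS2 in increased-dose replicate 19 (566 normalized counts) lay far above the other 4 increased-dose libraries (161 to 254), and RSAD2 in increased-dose replicate 3 (144) far above its other 4 (55.6 to 73.1). IFI6 was far above its group in increased-dose replicate 19 (8754) and in standard-dose replicate 9 (3172). LAP3 was also far above its group in standard-dose replicate 9 (3627). The lowest values that stood apart were IFNE in increased-dose replicate 3 (14.5), EIF2AK2 in standard-dose replicate 33 (394) and TGFBI in standard-dose replicate 41 (247).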

How the results depend on the processing

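With limma, 0 genes and 0 members passed under each pseudocount, filter and left-out library tried and with TMM factors, and edgeR passed 0 of both, whereas DESeq2 on the recovered reads passed 195 genes and 0 members. The log2 fold change of OAS2 was 0.011 with TMM factors, which moved the median of all genes by 0.05. Without standard-dose replicates 9 and 41 it was 0.11 for OAS2, -0.22 for IFIT3 and -0.99 for OAS1, which passed the minimum of 20 there. With all libraries the difference for OAS1 was 1.34 on the log2(count + 1) scale, with an adjusted p by limma of 0.742 with no filter and 0.662 with at least 10 in at least 4 libraries. With each library left out in turn, the counts of genes, members and listed interferon genes that passed stayed at 0, the median log2 fold change of the members was 0.08 to 0.49 and the difference in their mean log2 level 0.06 to 0.49. Log2 fold changes then ranged from 0.28 to 0.78 for IFIT1, -0.14 to 0.25 for IFIT3, -0.34 to 1.06 for ISG15, -0.15 to 0.46 for MX1, 0.12 to 0.70 for MX2, -0.44 to 0.46 for OAS2, -0.17 to 0.26 for RSAD2 and 0.56 to 1.32 for USP18. Exact permutation p values ranged from 0.0536 to 0.232 for IFIT1, 0.457 to 0.971 for IFIT3, 0.357 to 0.914 for ISG15, 0.314 to 0.929 for MX1, 0.125 to 0.786 for MX2, 0.232 to 0.732 for OAS1, 0.464 to 0.982 for OAS2, 0.6 to 1 for RSAD2 and 0.0286 to 0.446 for USP18. The cause of these changes was not tested. No paired analysis was possible because the groups share no replicate numbers. Depth limits ISG15 and OAS1 most, with 2 to 75 and 0 to 62 reads per library.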
